A study of Homo sapiens with 12 samples.

Results

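The comparison described here is the knockdown of PHGDH in HaCaT cells that had not been given the treatment that the labels call Mix: 3 libraries from cells transfected with siRNA against PHGDH against 3 from cells transfected with control siRNA, 6 of the 12 libraries of the study. HaCaT is a spontaneously immortalised line of human skin keratinocytes, and every library came from this single line after transfection with an siRNA. No untransfected cells were included. The other 6 libraries, in the same 2 siRNA arms after 24 h of Mix, entered the statistical model and are given beside the results where the same difference was measured a further time. The sources used here give neither the contents of the mix nor the siRNA sequences. Nor do they say whether libraries within a group are separate cultures, so the p-values here reflect library-to-library spread alone, which may be technical. An siRNA lowers a transcript and does not remove the gene, so the cells are a partial knockdown. In RNA from a whole culture, fewer cells that express a gene and less of its RNA per cell cannot be told apart.

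PHGDH encodes phosphoglycerate dehydrogenase, which takes 3-phosphoglycerate out of glycolysis and opens the pathway to serine. PSAT1 and PSPH complete the pathway, and the serine hydroxymethyltransferases then turn serine into glycine and hand a carbon unit to folate for nucleotide synthesis. Cells short of serine or other amino acids are known to translate more of the transcription factor ATF4, which raises transcripts of amino acid enzymes and transporters. Serine is also a building block of sphingolipids and, through cysteine and glycine, of glutathione.

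Levels are given as FPKM, fragments scaled by gene length and library depth, and differences as log2 fold changes of FPKM + 1 (PHGDH siRNA minus control siRNA) with their standard error (SE). On this scale a change in a gene below a few FPKM is understated. A gene is called where the limma p-value, adjusted by the Benjamini-Hochberg method over the 13744 genes tested, was below 0.05. Genes entered the test where at least one group averaged 0.5 FPKM, which 13744 of the 58735 listed genes reached. Groups are said to be apart where every library of one lay above every library of the other.

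Depth was similar across the 6 libraries, with 16403845 to 18225012 reads recovered from the FPKM values and 21348 to 22510 genes above 0. All 10 keratinocyte markers were expressed, at summed levels of 1729 to 2600 FPKM under control siRNA and 2214 to 6443 FPKM under PHGDH siRNA. The 6443 FPKM was that of PHGDH-siRNA replicate 2, and the other knockdown libraries lay within the control range. Of the markers of other cell types, DPT of fibroblasts, TYR of melanocytes, PTPRC, CD3E and MS4A1 of leukocytes and KDR of endothelium were at 0 in all 6. Other members of these lists had low values. Summed levels per library were 1.55 to 2.11 FPKM for fibroblast, 0.993 to 1.26 FPKM for melanocyte, 0.468 to 2.87 FPKM for leukocyte and 0.681 to 0.975 FPKM for endothelial markers. PHGDH-siRNA replicate 2 stood apart from the rest. On the first principal component of log2(FPKM + 1), which held 50.4% of the variance, it lay at -50.3 and the other 5 between -10.8 and 24.2. It differed by more than 1 log2 unit from the mean of the others in its group for 1068 genes, where the other 5 libraries gave 112 to 322, and mitochondrial rRNA took 0.740% of its reads against 0.249% to 0.358%. Control-siRNA replicate 1 lay at -35.3 on the second component (23.7%), with 7.08% of its reads from mitochondrial genes, against 4.64% to 5.56% elsewhere. Results that rest on PHGDH-siRNA replicate 2 are given with and without it.

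The upstream sequence of the target and of those called genes with an entry in the RefSeq promoter table (3 of 7 genes looked up) is shown first, as the stretch next to which transcription of these genes starts. Each line gives the 250 bases before the transcription start that lies farthest upstream in that table (GRCh38.p14), read 5′ to 3′ on the strand of the gene. Capitals mark matches to the motifs searched, in either orientation.
PHGDH, chr1:119711684-119711933, plus strand: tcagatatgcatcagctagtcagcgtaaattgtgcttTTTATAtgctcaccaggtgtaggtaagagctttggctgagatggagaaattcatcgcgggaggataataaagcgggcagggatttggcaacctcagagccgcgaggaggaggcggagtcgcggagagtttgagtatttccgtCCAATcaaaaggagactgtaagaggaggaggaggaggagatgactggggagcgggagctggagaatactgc
SEMA7A, chr15:74433959-74434208, minus strand: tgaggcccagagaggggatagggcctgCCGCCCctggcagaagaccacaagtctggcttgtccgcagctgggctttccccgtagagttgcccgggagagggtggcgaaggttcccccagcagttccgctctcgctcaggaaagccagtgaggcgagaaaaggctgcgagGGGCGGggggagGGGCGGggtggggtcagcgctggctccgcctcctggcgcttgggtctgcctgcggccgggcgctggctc
AGR2, chr7:16805000-16805249, minus strand: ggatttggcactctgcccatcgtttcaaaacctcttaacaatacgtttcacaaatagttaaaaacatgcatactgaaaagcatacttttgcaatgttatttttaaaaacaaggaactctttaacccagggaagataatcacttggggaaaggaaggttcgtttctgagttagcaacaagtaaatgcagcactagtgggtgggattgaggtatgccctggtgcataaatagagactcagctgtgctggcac
The 250 bases of SEMA7A were 70.0% G and C and those of AGR2 40.4%, with PHGDH between them at 51.2% and a median of 58.0% over all windows in the table. The capitals in SEMA7A mark 3 GC boxes (GGGCGG), a motif found in 42.6% of the 35116 promoter windows of the same length and in 64.6% of the 13173 windows of tested genes. Those in PHGDH mark 1 CCAAT box (CCAAT, 32% of windows) and 1 TATA box letter match (TATAAA, 10.7%, and 5.68% for tested genes), the latter more than 200 bases before the start, at -213 to -208. The antioxidant response element (TGACNNNGC, 10.9% of windows), the AP-1 site (TGANTCA, 6.57%), the aryl hydrocarbon receptor core (TNGCGTG, 4.52%) and the amino acid response element (TGATGNAAT, 0.889%) were searched in the same way and had no match in these 3 windows. The windows of PHGDH and AGR2 lie inside the longer gene spans of the deposited annotation, and that of SEMA7A begins at the next base after the gene's end.

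PHGDH (ENSG00000092621, chromosome 1, 119648411 to 119744226, hg38) was 2.28-fold lower under its own siRNA, with the groups apart, but did not pass the test over all genes. Its level was 36.5, 56.2 and 45.8 FPKM with control siRNA and 23.7, 20.1 and 16.9 FPKM with siRNA against PHGDH. The highest knockdown library thus lay below the lowest control library, and the mean was 56.2% lower. The difference was -1.14 on the log2 scale (SE 0.21, adjusted p = 0.125 by limma). An exact permutation test of 3 against 3 libraries gave p = 0.1, the smallest it allows. Leaving out single libraries moved the difference between -0.99 and -1.30.

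No other gene of serine synthesis and the folate cycle was called. Of the 27 listed genes 20 were tested, and 0 were called (13744 genes tested, 0.0437% called), with 8 higher, 12 lower and a median of -0.03, against 7041 higher, 6703 lower and a median of 0.01 over all genes tested. PSAT1, the aminotransferase that follows PHGDH, stood at 190, 187 and 160 FPKM in the control libraries and 171, 73.3 and 151 FPKM in the knockdown libraries. PSPH, which releases serine, measured 28.3, 29.0 and 26.5 FPKM against 30.3, 12.1 and 27.3 FPKM. In both genes the low value was that of PHGDH-siRNA replicate 2, and the other knockdown libraries lay within or close to the control range. SHMT2, the mitochondrial hydroxymethyltransferase, gave 66.0, 98.3 and 82.6 FPKM against 106, 53.9 and 87.8 FPKM, and MTHFD2 of the mitochondrial folate cycle 31.1, 26.7 and 23.9 FPKM against 40.1, 20.1 and 38.1 FPKM. SHMT1, its cytosolic counterpart, gave 11.6, 15.6 and 15.4 FPKM against 11.9, 13.7 and 10.7 FPKM. All of these groups overlapped except PHGDH itself and MTHFD1L (13.9, 15.2 and 13.0 against 16.1, 15.8 and 15.2 FPKM, log2 fold change 0.16, adjusted p = 0.888). The 7 members that were not tested, GLDC, AMT, ALDH1L1, ALDH1L2, FTCD, SDS and SLC25A32, were below 0.5 FPKM in both groups.

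Amino acid response genes split the knockdown libraries. Of 34 tested ATF4 targets 25 were higher and 9 lower, with a median of 0.13 and 0 called, but the median over members was 0.46 above the control mean in PHGDH-siRNA replicate 1, 0.27 above it in replicate 3 and 0.33 below it in replicate 2. CHAC1, which breaks down glutathione, measured 4.63, 7.37 and 5.32 FPKM in the control libraries and 73.7, 2.68 and 15.6 FPKM in the knockdown libraries. DDIT3, a stress transcription factor, gave 8.40, 11.9 and 9.44 FPKM against 32.9, 4.98 and 13.3 FPKM, and TRIB3, a pseudokinase of the same response, 37.1, 47.4 and 34.1 FPKM against 77.9, 33.6 and 55.2 FPKM. Replicates 1 and 3 were above every control library and replicate 2 below every control library for these 3 genes. ATF4 itself, at 134, 165 and 146 FPKM against 271, 126 and 192 FPKM, had the same order. Without PHGDH-siRNA replicate 2 the list had 32 members higher and 3 lower, a median of 0.33 and 0 members called, and without replicate 1 the median was -0.05, so that its direction rests on single libraries. ASNS, a commonly used member of this response, did not reach 0.5 FPKM in either group and was not tested.

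**Figure D1:**
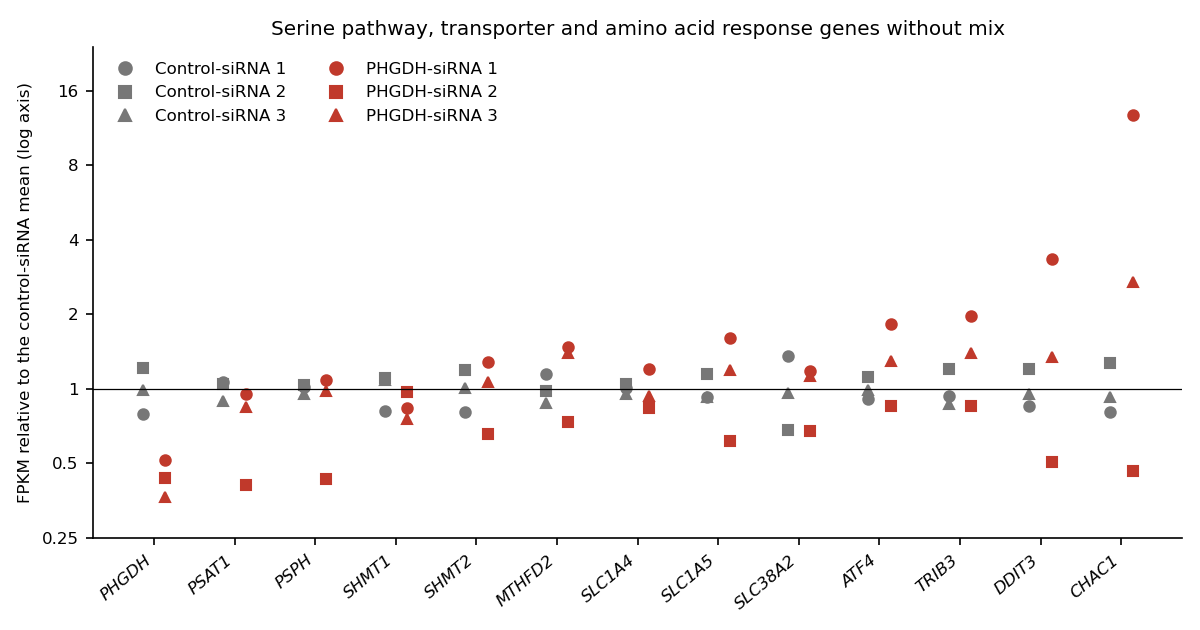
FPKM of PHGDH, serine and folate enzymes, amino acid transporters and ATF4 response genes in each of the 6 libraries without mix, divided by the control-siRNA mean, on a log axis. PHGDH is low in all 3 red libraries, whereas PSAT1 and PSPH are low in PHGDH-siRNA replicate 2 alone and CHAC1 runs from 2.68 FPKM in that library to 73.7 FPKM in replicate 1.

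Transporters that bring serine and other neutral amino acids into the cell were not called. SLC1A4 stood at 12.7, 13.1 and 11.9 FPKM against 15.1, 10.5 and 11.7 FPKM, and SLC1A5, the main glutamine carrier, at 124, 153 and 124 FPKM against 215, 81.9 and 159 FPKM. Both ranges contained the control values. Of 24 transporters tested 19 were higher and 5 lower (median 0.09). The knockdown libraries stood at 0.20, -0.03 and 0.16, and the median was 0.18 without replicate 2 and 0.06 without replicate 1. SLC38A7, named after its values were seen, was called without replicate 2 of both knockdown arms (0.62, adjusted p = 0.0442), at 3.86, 4.64 and 3.81 FPKM against 7.23 and 6.44 FPKM, with 3.29 FPKM in the library left out. SLC1A3, a glutamate carrier, was the member with the lowest p, at 23.1, 15.6 and 18.5 FPKM against 14, 10.1 and 13.8 FPKM (log2 fold change -0.56, adjusted p = 0.46). Lists further down from serine gave medians of 0.01 for methionine and polyamine metabolism (19 tested), 0.00 for purine and pyrimidine synthesis (17 tested) and 0.05 for sphingolipid and phosphatidylserine synthesis (28 tested), none of them far from that of all genes. In the last, ORMDL3, which restrains the first enzyme of sphingolipid synthesis, measured 12.8, 16.9 and 18.3 FPKM against 10.9, 7.31 and 8.89 FPKM (-0.76, adjusted p = 0.221), and UGCG, which makes glucosylceramide, 14.9, 10.7 and 12.4 FPKM against 15.3, 16.8 and 18.9 FPKM (0.40, adjusted p = 0.627). These groups were apart, as they were for 4.93% of all genes in the higher direction (678) and 5.49% in the lower direction (754).

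Only 6 of the 13744 genes were called: 2 rose (0.0146%) and 4 fell (0.0291%). At an unadjusted p below 0.05, 466 genes were higher (3.39%) and 469 lower (3.41%), these 6 included.

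SEMA7A (ENSG00000138623, chromosome 15, 74409289 to 74433958, minus strand) is a semaphorin held in the outer membrane by a lipid anchor, known to signal through the receptor PLXNC1 and through integrins with the ITGB1 subunit. Its level was 3.60, 6.17 and 3.75 FPKM in the control libraries and 13.8, 11.7 and 14.9 FPKM in the knockdown libraries. Every knockdown library was far above the highest control library, PHGDH-siRNA replicate 2 included. The gene rose 2.99-fold (log2 fold change 1.42, SE 0.18, adjusted p = 0.0279), from 247 to 419 recovered reads per library to 851 to 1059. Its receptor PLXNC1 was not tested, with at most 0.116 FPKM in these libraries, and ITGB1 gave 62.6, 42.8 and 46.1 FPKM against 44.0, 56.6 and 54.9 FPKM. Among 23 tested semaphorins, plexins and neuropilins SEMA7A was the single call. Of the others 16 were lower, with a list median of -0.13. In the lower direction 6 were apart, as were 5.49% of all genes. NRP2 was among them, at 4.12, 3.96 and 4.09 FPKM against 3.06, 3.57 and 3.32 FPKM (-0.23, adjusted p = 0.733).

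ARID3B (ENSG00000179361, chromosome 15, 74541177 to 74598131, plus strand) encodes a DNA-binding protein with an AT-rich interaction domain. Its groups were narrow, at 2.20, 2.40 and 2.07 FPKM against 4.90, 4.87 and 4.66 FPKM. It rose 2.17-fold (0.85, SE 0.11, adjusted p = 0.0289). The related ARID3A stood at 2.18, 3.27 and 2.74 FPKM against 4.10, 1.73 and 3.89 FPKM, with replicate 2 again below the controls and the other libraries above them. No other of the 13 tested ARID family genes was called, and the list median was -0.02. SEMA7A and ARID3B are neighbours, 107218 bases apart. The 3 tested genes between them were not called, with log2 fold changes of -0.16 to 0.31, and UBL7, the most abundant, measured 26.4, 30.1 and 24.6 FPKM against 25.6, 32.3 and 24.9 FPKM.

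ALDH3A1 (ENSG00000108602, chromosome 17, 19737984 to 19748943) is a cytosolic aldehyde dehydrogenase, abundant in cornea and inducible through the aryl hydrocarbon receptor. Its control libraries held 7.34, 11.3 and 12.6 FPKM and its knockdown libraries 3.95, 2.47 and 2.87 FPKM. It fell 3.36-fold (-1.46, SE 0.19, adjusted p = 0.0279), the widest difference of the 6 on the log2 scale. The control libraries varied more than the knockdown libraries, with Control-siRNA replicate 1 lowest. In the list of this receptor's pathway 6 of 11 tested genes were higher and 5 lower (median 0.02, and -0.14 without PHGDH-siRNA replicate 2). In each direction 1 was apart, against 4.93% of all genes higher and 5.49% lower, and the lower one was ALDH3A1 itself. Among genes induced through the receptor, CYP1A1 gave 4.36, 3.27 and 3.10 FPKM against 4.24, 4.87 and 2.59 FPKM. NQO1 gave 96.8, 100.2 and 98.9 FPKM against 103, 44.7 and 94.9 FPKM, and both genes overlapped between the groups.

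Within the aldehyde dehydrogenase family 10 of 14 tested members were lower (median -0.17). Apart were 5 in the lower direction, ALDH3A1 included, and 2 in the higher, where 5.49% and 4.93% of all genes were. ALDH3B2, a lipid-droplet member, measured 2.43, 2.89 and 2.57 FPKM against 1.33, 1.27 and 1.24 FPKM (-0.67, adjusted p = 0.0949). ALDH3A2, which oxidises fatty aldehydes, measured 40.8, 33.5 and 35.8 FPKM against 24.7, 28.7 and 24.5 FPKM (-0.48, adjusted p = 0.45). ALDH6A1, of valine breakdown, gave 1.68, 1.73 and 1.51 FPKM against 0.868, 1.05 and 1.11 FPKM (-0.40, adjusted p = 0.363). None of these 3 passed, although all knockdown libraries lay below all control libraries.

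AKR1B10 (ENSG00000198074, chromosome 7, 134527592 to 134541408, plus strand) is an aldo-keto reductase that reduces aldehydes and retinal and a well-known target of NRF2, the transcription factor of the oxidant response. It measured 7.22, 8.21 and 8.89 FPKM against 3.39, 2.96 and 3.14 FPKM, with 227 to 293 reads per control library and 98 to 102 per knockdown library. It fell 2.56-fold (-1.13, SE 0.14, adjusted p = 0.0279). The near-identical AKR1B15 was below 0.5 FPKM in both groups, and the rule for reads that match both genes is not stated in the sources used here.

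NRF2 targets and glutathione genes were lower in 32 of 36 tested members (median -0.18 against 0.01 over all genes), AKR1B10 being the single call. Apart in the lower direction were 9 members, AKR1B10 included, against 5.49% of all genes. AKR1C2 stood at 37.0, 30.0 and 33.2 FPKM against 22.5, 12.9 and 16.6 FPKM (-0.94, adjusted p = 0.46) and AKR1C1 at 9.70, 8.26 and 9.13 FPKM against 6.57, 3.06 and 5.31 FPKM (-0.79, adjusted p = 0.577), 2 steroid-reducing genes so alike that reads can be split between them. EPHX1, a microsomal epoxide hydrolase, gave 15.5, 17.0 and 18 FPKM against 12.7, 10.5 and 10.8 FPKM (-0.54, adjusted p = 0.341). Other members, widely used as readouts of NRF2, overlapped between the groups: GCLM was at 19.9, 14.3 and 16.9 FPKM against 15.5, 18.8 and 14.3 FPKM, and HMOX1 at 3.73, 5.86 and 4.14 FPKM against 9.54, 5.44 and 6.80 FPKM. The median deviation from the control mean was -0.10, -0.44 and -0.17 in the 3 knockdown libraries and -0.12 to 0.07 in the controls, so replicate 2 was lowest and replicate 1 lay within the control range. Without replicate 2 the median was -0.13, with 28 of 36 members lower, and without Control-siRNA replicate 1 it was -0.30.

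PADI3 (ENSG00000142619, chromosome 1, 17249098 to 17284233, plus strand) converts arginine to citrulline in filaggrin and trichohyalin of upper epidermis and hair follicle. Its level was 5.18, 6.81 and 7.73 FPKM in the control libraries and 2.35, 1.75 and 2.40 FPKM in the knockdown libraries, a 3.03-fold fall (-1.25, SE 0.15, adjusted p = 0.0279). PADI1, its relative in the same cluster, stood at 1.10, 1.91 and 2.14 FPKM against 0.998, 1.56 and 1.09 FPKM (adjusted p = 0.888), with overlap. Of 31 tested genes of epidermal differentiation and cornification 15 were higher and 16 lower (median -0.10), and PADI3 was the single call. Members apart between the groups ran in both directions. KLK13, a kallikrein protease, measured 2.21, 2.34 and 3.11 FPKM against 1.05, 1.69 and 1.5 FPKM. SPRR2D, a cornified envelope precursor, measured 0.262, 0.476 and 0.200 FPKM against 1.09, 0.690 and 1.07 FPKM (adjusted p = 0.349 for both genes).

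AGR2 (ENSG00000106541, chromosome 7, 16791811 to 16833433, minus strand) is a disulfide isomerase of the endoplasmic reticulum, best known from mucus-secreting epithelium. It was the lowest-expressed of the called genes, at 1.79, 1.40 and 1.71 FPKM against 0.488, 0.476 and 0.377 FPKM, or 71 to 92 reads against 20 to 26. It fell 3.65-fold in mean FPKM, which is -0.86 (SE 0.11, adjusted p = 0.0279) on the log2(FPKM + 1) scale. The other 18 tested disulfide isomerases were not called, 11 of the 19 being higher. P4HB, the most studied member, stood at 106, 118 and 109 FPKM against 88.5, 94.6 and 72.1 FPKM (-0.39, adjusted p = 0.627). Chaperones of the same compartment were higher in 18 of 22, with a median of 0.10 and 0 called.

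**Figure D2:**
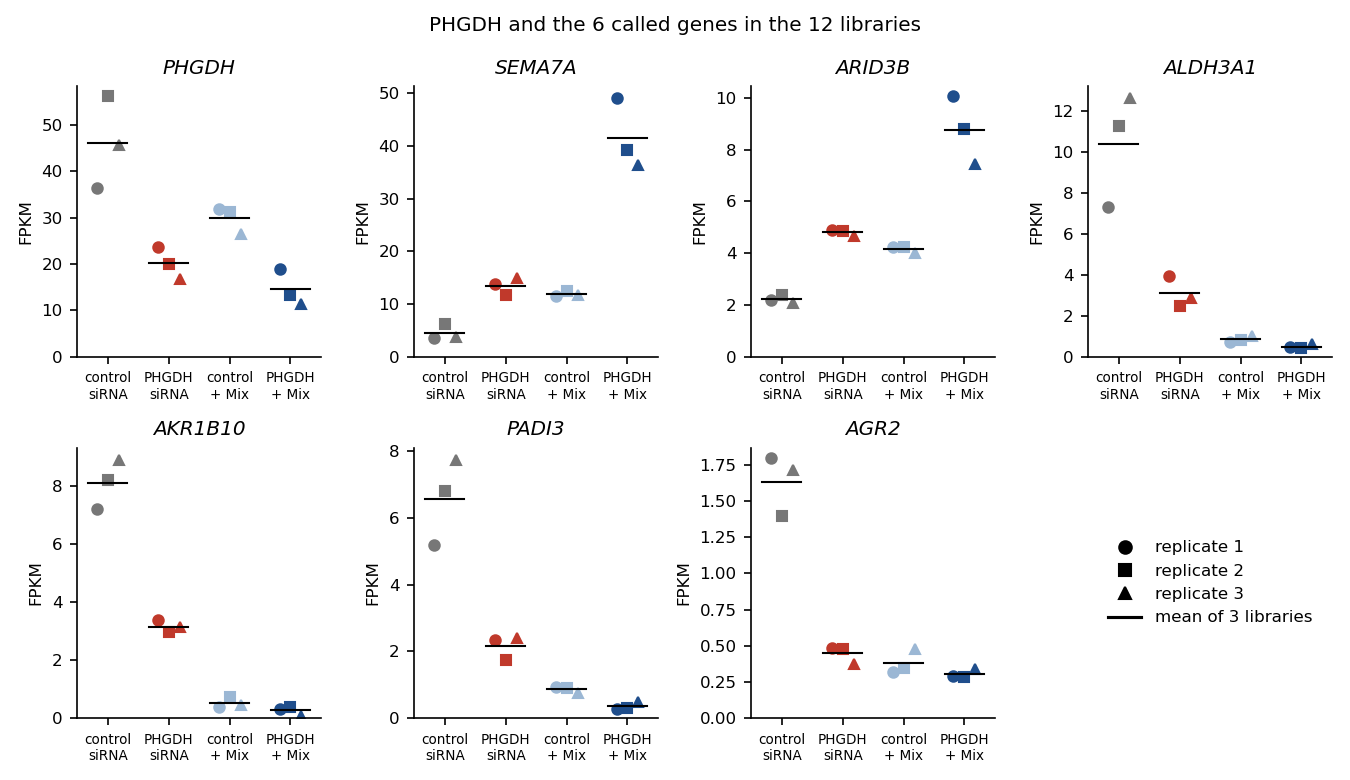
FPKM of PHGDH and of the 6 called genes in all 12 libraries, with a black line at the mean of each group of 3. In the comparison without mix (grey against red) no gene overlaps between the groups, and with mix (light against dark blue) ALDH3A1, AKR1B10, PADI3 and AGR2 are near the bottom of the axis in both arms.

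These calls were sensitive to how the model was fitted. Same-numbered libraries of the knockdown arms without and with mix deviated together, and a fit with these pairs as a block (limma, random effect, added after the data were seen) called none of the 6 (adjusted p = 0.0722 for each). With the control libraries paired by number as well, all 6 were called (adjusted p = 0.0414 to 0.0435). With limma, none of the 6 was called with a pseudocount of 0.1, without the filter on low values, in a fit of the 6 libraries alone, or when Control-siRNA replicate 3 or any single knockdown library was left out (adjusted p between 0.0506 and 0.566). Without Control-siRNA replicate 1 SEMA7A, ARID3B and AGR2 were lost (adjusted p = 0.0759), without Control-siRNA replicate 2 all but SEMA7A, and with voom on recovered reads AKR1B10 alone (adjusted p = 0.169). In these 3 fits 4, 2 and 6 genes were called, each count including a gene outside the 6.

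Next to the calls stood 24 genes named by rule, the 12 with the lowest unadjusted p in each direction among genes that averaged at least 1 FPKM in a group and whose groups were apart. They are given as values. DCBLD1, a membrane protein with discoidin and CUB domains, stood at 2.28, 1.99 and 1.97 FPKM against 3.97, 4.69 and 4.25 FPKM (0.78, SE 0.12, adjusted p = 0.0649). TGFA, a ligand of the EGF receptor, stood at 16.2, 13.8 and 14.6 FPKM against 27.7, 21.1 and 25.9 FPKM (0.70, adjusted p = 0.164), and CSF1, the macrophage growth factor, at 4.67, 4.83 and 5.45 FPKM against 10.6, 8.20 and 7.12 FPKM (0.68, adjusted p = 0.14). LATS2, a kinase of the Hippo pathway, gave 3.48, 2.67 and 2.98 FPKM against 5.48, 5.49 and 6.33 FPKM (0.75, adjusted p = 0.11). FERMT2, which activates integrins, gave 1.67, 1.24 and 1.27 FPKM against 2.60, 3.25 and 3.26 FPKM (0.75, adjusted p = 0.147).

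SLC2A3, a glucose transporter of high affinity, had the widest difference of the 12 apart from a microRNA gene with few reads. It measured 2.06, 2.51 and 1.91 FPKM against 9.47, 4.72 and 8.95 FPKM (1.42, SE 0.27, adjusted p = 0.14), with replicate 2 at about the middle between the controls and the other knockdown libraries. STX11, a syntaxin of vesicle fusion, gave 0.288, 0.436 and 0.247 FPKM against 1.38, 1.52 and 1.20 FPKM (0.84, adjusted p = 0.125). STYK1, a receptor-like kinase, and ANKRD46 were about 2-fold higher (1.96 and 2.01), as was the noncoding LINC02551 (2.51), while the noncoding MYOSLID was 1.64-fold higher (adjusted p = 0.125 to 0.16). MIR221 had 0 reads in the control libraries and 3 to 7 in the knockdown libraries, too few to read as a level, and reads of its host transcript cannot be told apart from it.

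Among the lower genes of this rule, SSRP1, a subunit of the histone chaperone FACT, was at 66.5, 79.6 and 75.5 FPKM against 44.6, 46.3 and 40.9 FPKM (-0.73, SE 0.11, adjusted p = 0.0649), on 4669 to 9023 reads per library. PSMB2, a catalytic-ring subunit of the proteasome, was at 66.6, 72.6 and 69.8 FPKM against 48.8, 41.7 and 44.2 FPKM (-0.63, SE 0.11, adjusted p = 0.125). Both are abundant, and their library values scattered little within each group. Of 19 alternatives with all or all but 1 of the libraries each gene passed in 1, SSRP1 with voom (0.0419) and PSMB2 after rescaling by the median ratio (0.0374), and their adjusted p elsewhere ran up to 0.9996. ADAT1, which edits an adenosine in tRNA, stood at 9.34, 7.76 and 8.40 FPKM against 4.78, 4.05 and 4.84 FPKM (-0.77, adjusted p = 0.0745). ATXN10 measured 21.0, 18 and 18.9 FPKM against 8.78, 12.4 and 10.6 FPKM (-0.82, adjusted p = 0.11). METTL7A, a methyltransferase of the endoplasmic reticulum and lipid droplets, measured 5.95, 5.30 and 6.83 FPKM against 2.34, 3.27 and 2.01 FPKM (-1.0, adjusted p = 0.107).

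FKBP15, VSIG10 and C12orf49, the last needed for maturation of the sterol regulator SREBP, were 1.55-fold, 1.65-fold and 1.56-fold lower (adjusted p = 0.11 to 0.125), and ALDH3B2 and PHGDH, given above, are also among the 12. The remaining 2, MIR4324 and RNU6-403P, rested on 1 to 3 reads in the control libraries and 0 in the others.

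**Figure D3:**
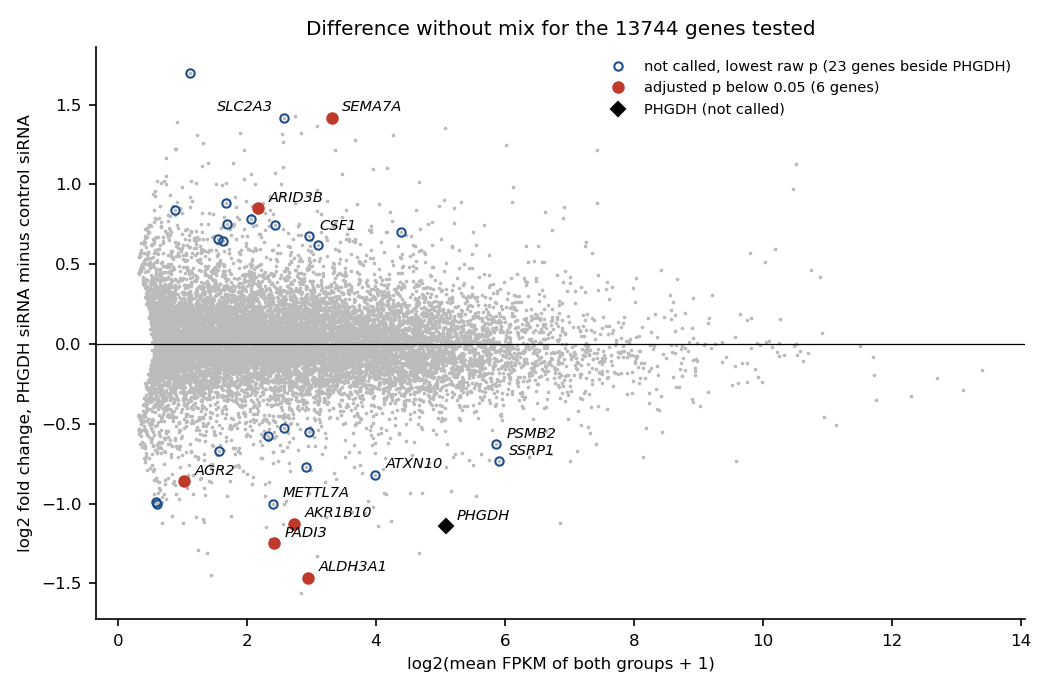
Log2 fold change (PHGDH siRNA minus control siRNA, without mix) of the 13744 genes tested against the mean level of both groups. Called genes are red, PHGDH is a black diamond and the other genes with the lowest unadjusted p are open blue circles. SSRP1, PSMB2 and PHGDH lie to the right of all 6 called genes, where levels are higher.

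Cytokine and signalling transcripts were mostly higher in the knockdown libraries, though no member of these lists was called. Of 27 tested epithelial cytokines and chemokines 23 were higher and 4 lower, with a median of 0.49, the widest of the lists whose 3 knockdown libraries all lay above all controls (0.55, 0.48 and 0.43 above the control mean, the controls between -0.01 and 0.02). In this list 10 members were apart in the higher direction and 1 in the lower, against 4.93% and 5.49% of all genes. CXCL8, a neutrophil attractant, gave 3.95, 2.44 and 3.54 FPKM against 20.5, 4.74 and 9.74 FPKM (1.37, SE 0.51, adjusted p = 0.627). TNF gave 0.827, 0.434 and 0.189 FPKM against 1.48, 1.12 and 1.12 FPKM (0.61, adjusted p = 0.341). Levels of this kind are low: CXCL16, the transmembrane chemokine, was among the more abundant, at 23.1, 34.5 and 25.5 FPKM against 40.9, 52.4 and 35.4 FPKM (0.62, adjusted p = 0.382). IL36G stood at 0.442, 0.608 and 0.038 FPKM against 1.66, 5.33 and 0.971 FPKM, and its natural antagonist IL36RN at 0.723, 0.797 and 0.802 FPKM against 1.43, 1.64 and 1.28 FPKM. CCL2, the member apart in the lower direction, measured 16.4, 12.9 and 15.2 FPKM against 11.2, 5.77 and 8.56 FPKM (-0.77, adjusted p = 0.6). The leukocyte markers PTPRC, CD3E and MS4A1 were at 0, and the summed leukocyte list ran from 1.57 to 2.02 FPKM under control siRNA and 0.468 to 2.87 FPKM under PHGDH siRNA, with CD14 at 1.29 to 1.76 FPKM in the controls and at 2.63, 0.055 and 1.68 FPKM in the knockdown libraries.

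Feedback genes of NF-kappaB, the transcription factor family behind many of these cytokines, were higher in 23 of 30 (median 0.23). Of these 30 genes 4 were apart in the higher direction, against 4.93% of all genes. TNFAIP3, which ends NF-kappaB signalling, gave 5.49, 5.04 and 4.42 FPKM against 12.6, 20.2 and 8.28 FPKM (1.22, adjusted p = 0.27). RELB, a subunit, gave 4.55, 11.2 and 7.08 FPKM against 15.8, 12.6 and 12.7 FPKM (0.84, adjusted p = 0.484). The control libraries of this list were themselves spread, with medians of -0.20, 0.19 and 0.02, and PHGDH-siRNA replicate 3 at 0.13 lay within them. In the JAK-STAT3 list 13 of 17 were higher (median 0.15, and 0.07 without Control-siRNA replicate 2), among them PIM1, a survival kinase, at 16.5, 19.3 and 17.6 FPKM against 28.4, 27.8 and 23.4 FPKM (0.55, adjusted p = 0.562).

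Growth factor signalling depended on the library. The list of EGF receptor, ligands and feedback genes was higher in 18 of 23 (median 0.31), and immediate early genes in 22 of 26 (median 0.32). In PHGDH-siRNA replicate 1 these medians were 0.62 and 0.81, in replicate 3 0.37 and 0.26, and in replicate 2 -0.01 and -0.14. Without replicate 1 the list medians were 0.11 and 0.18, and without replicate 2 0.48 and 0.56. FOSL1, an AP-1 subunit of migrating keratinocytes, was above the controls in all 3, at 30.9, 48.3 and 32.3 FPKM against 113, 65.8 and 91.5 FPKM (1.25, SE 0.28, adjusted p = 0.221). DUSP5, a phosphatase induced by ERK, gave 6.76, 6.70 and 5.24 FPKM against 23.6, 9.69 and 19.2 FPKM (1.28, adjusted p = 0.561), and SPRY4, an inhibitor of receptor kinases, 0.532, 0.528 and 0.492 FPKM against 2.17, 0.524 and 1.49 FPKM. The urokinase gene and its receptor, which act in pericellular proteolysis, were higher in all 3 libraries. PLAU measured 76.1, 98.3 and 79.4 FPKM against 175, 172 and 120 FPKM (0.86, adjusted p = 0.301), and its receptor PLAUR 8.46, 9.55 and 8.57 FPKM against 15.8, 15 and 12.9 FPKM (0.66, adjusted p = 0.164). The list that holds them, with the metalloproteinases, was divided, 9 higher and 10 lower.

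Targets of p53, a factor that HaCaT cells carry in mutated form, were higher in 18 of 25 (median 0.30), with the knockdown libraries at 0.21, 0.16 and 0.14 and the controls at -0.16, 0.12 and 0.03. Without Control-siRNA replicate 1, the lowest, the median was 0.15. PLK2 stood at 17.0, 16.9 and 16.7 FPKM against 31.4, 26.2 and 25.2 FPKM (0.67, adjusted p = 0.349). TNFRSF10B, a death receptor, stood at 18.3, 21.4 and 19.1 FPKM against 36.5, 24.0 and 30.4 FPKM (0.59, adjusted p = 0.478). CDKN1A, the cell cycle inhibitor, gave 44.7, 58.3 and 56.1 FPKM against 96.2, 46.9 and 73.7 FPKM and overlapped.

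DNA replication genes were lower in 31 of 49 (median -0.04) and mitotic genes in 30 of 43 (median -0.10), with 0 called in either list. The mitotic median was -0.18 without PHGDH-siRNA replicate 2 and -0.04 without replicate 1. CDCA8, a subunit of the chromosomal passenger complex, stood out among them at 40.9, 43.4 and 41.8 FPKM against 23.6, 25.7 and 23.5 FPKM (-0.77, SE 0.15, adjusted p = 0.151, and 0.0112 without replicate 2 of both knockdown arms). CCNB1, the mitotic cyclin, gave 160, 163 and 165 FPKM against 138, 105 and 143 FPKM (-0.35, adjusted p = 0.676), and MKI67 17.4, 10.3 and 14.9 FPKM against 7.83, 20.3 and 12 FPKM.

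Histone transcripts had the lowest median of the lists with 10 or more tested members, at -0.51 over 33 tested, with 30 lower and 3 higher. Apart in the lower direction were 15 of them, against 5.49% of all genes. The medians by library were -0.25, -0.79 and -0.44 in the knockdown libraries and -0.02 to 0.03 in the controls. Replicate 2 was again the extreme, and the median was -0.36 without it, with 30 of 33 still lower. HIST1H2AC measured 24.3, 18.6 and 21.4 FPKM against 13.5, 6.69 and 8.36 FPKM (-1.14, SE 0.28, adjusted p = 0.295), and HIST1H4K 8.35, 8.79 and 10.0 FPKM against 5.81, 2.34 and 5.33 FPKM (-0.94, adjusted p = 0.349). Most histone mRNAs lack a poly(A) tail, and histone genes of a class are near-identical, so these levels also depend on RNA selection and on the counting of shared reads, which the sources used here do not describe.

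Of the 13 mRNAs encoded in mitochondria 12 were lower (median -0.24), but the control libraries differed among themselves as much, at 0.27, -0.12 and -0.20 against -0.20, -0.32 and -0.23. The high one was Control-siRNA replicate 1, the library with the largest mitochondrial share, and without it the median was -0.14. Nuclear-encoded respiratory chain subunits (51 of 76 lower, median -0.08) and cytosolic ribosomal proteins (51 of 82 lower, median -0.02) changed sign when Control-siRNA replicate 2 was left out (0.05 and 0.13) and stood at -0.24 and -0.23 without Control-siRNA replicate 1. A shift with gene length moved with these lists of short genes: genes in the lowest quartile of length had a median deviation of -0.106 in Control-siRNA replicate 1, 0.081 in Control-siRNA replicate 2 and -0.097 in PHGDH-siRNA replicate 2, where the ribosomal list stood at -0.36, 0.28 and -0.26. Its part in the result was not tested. ATP5PB, a subunit of ATP synthase, was apart at 62.7, 64.4 and 64.8 FPKM against 47.7, 50.3 and 54.3 FPKM (-0.33, adjusted p = 0.459).

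The medians of several lists were set by PHGDH-siRNA replicate 2 alone. Wound keratins and squamous serpins were higher in 13 of 13 members with a median of 0.56, but the library medians were 0.11, 1.40 and -0.04, and without replicate 2 the median was 0.01. KRT16, a keratin of hyperproliferative epidermis, gave 5.02, 8.05 and 6.5 FPKM against 6.98, 32.3 and 6.0 FPKM, and SERPINB2, a plasminogen activator inhibitor, 14, 13.5 and 16.4 FPKM against 20.8, 104 and 26.6 FPKM. SERPINB2 was nevertheless above the controls in all 3 knockdown libraries. So was KRT17, at 73.2, 120 and 100.3 FPKM against 179, 400 and 157 FPKM (1.22, adjusted p = 0.349). Of the 13 members 4 were apart in the higher direction, against 4.93% of all genes. Hypoxia genes (median 0.23) stood at -0.12, 0.75 and 0.00 by library and at -0.06 without replicate 2, and the keratinocyte markers at -0.24, 1.0 and -0.07, with a median of 0.23 that became -0.21 without it. KRT14, a basal keratin, reached 2986 FPKM in that library against 527 to 813 FPKM in the other 5. Heat shock genes were lower in 14 of 15 (median -0.16), with replicate 2 at -0.48 and the other knockdown libraries at -0.08 and 0.05.

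**Figure D4:**
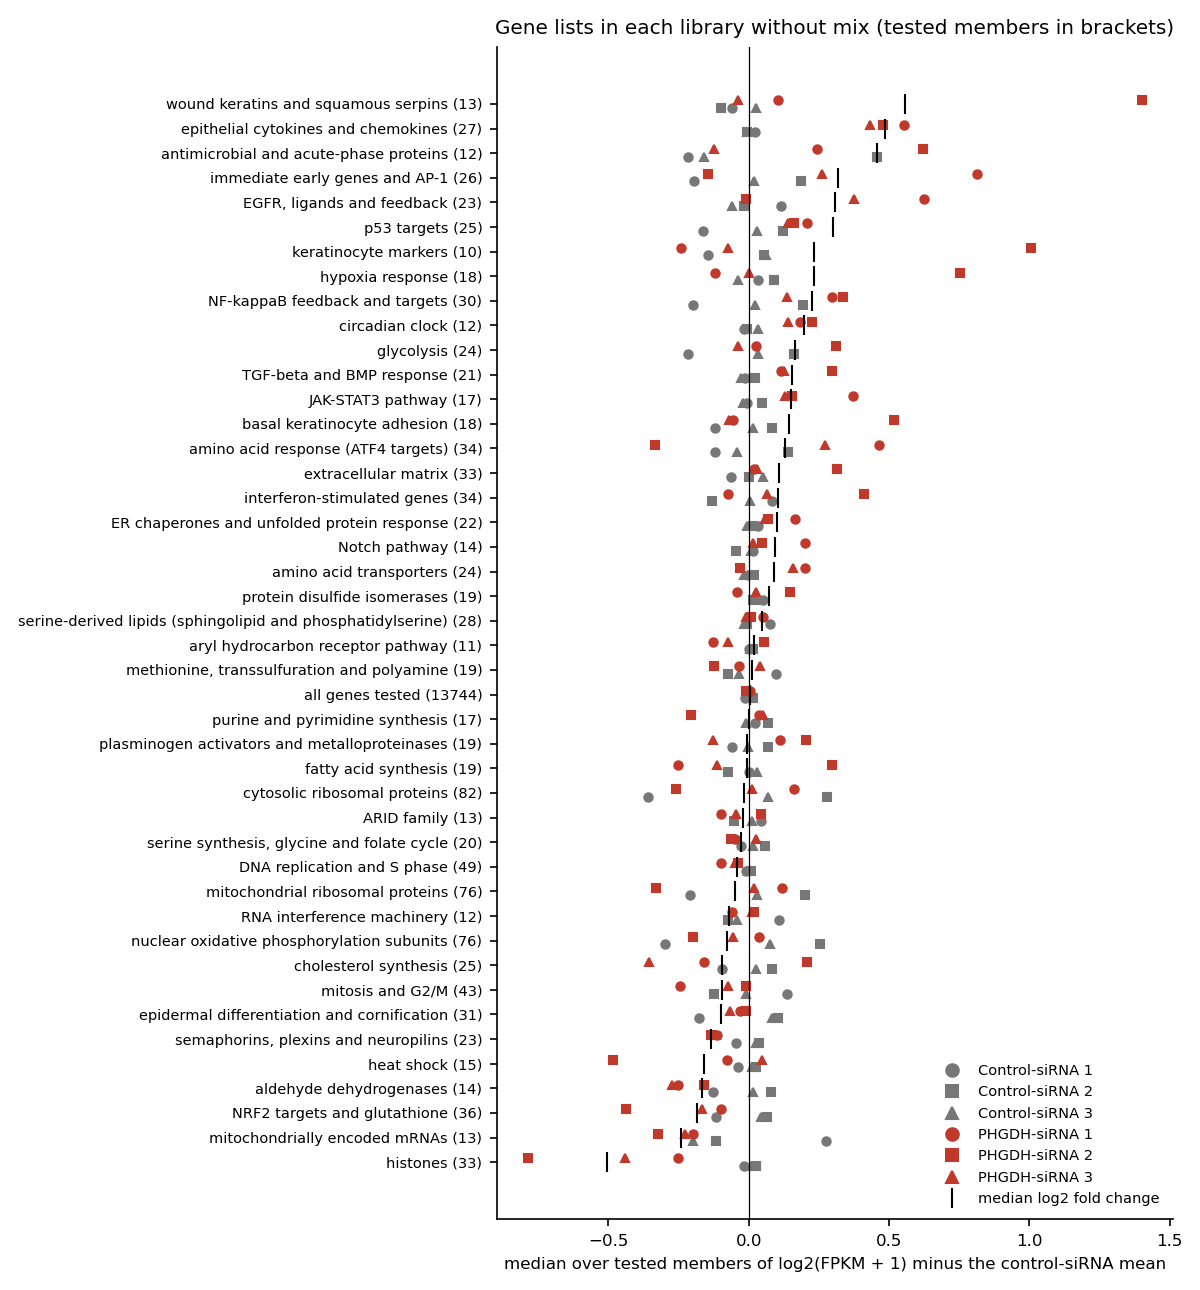
Median over the tested members of each gene list of log2(FPKM + 1) minus the control-siRNA mean, for the 6 libraries without mix, with a black bar at the median log2 fold change of the list. Histones lie lowest and epithelial cytokines are high in all 3 red libraries, while wound keratins, hypoxia genes and keratinocyte markers are high in PHGDH-siRNA replicate 2 (red square) alone.

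Because that library and replicate 2 of PHGDH-siRNA+Mix stood apart in earlier results of these data, the comparison was repeated without both, leaving 2 knockdown libraries against 3 controls. Then 115 of 13659 genes were called, 59 up (0.432%) and 56 down (0.41%), including all 6 genes above. Since the 2 libraries were chosen from these same data, the adjusted p-values of this fit can be too low. Its calls share libraries with the main fit and are no separate support for the 6 genes. The library left out of this fit lay beyond the control range on the same side for 33 of the 59 higher and 33 of the 56 lower genes, and beyond it on the opposite side for 11 and 14. Of the 115 genes 11 had a mean below 10 reads. The count was 0 in a fit of the 5 remaining libraries without mix alone, and 204 when a replicate block was added to that fit. With a replicate block on both mix conditions it was 6. The cause of these shifts was not tested.

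The genes with the lowest adjusted p among these calls were SLC2A3 (log2 fold change 1.70, adjusted p = 4.1e-04), HMGA2, ADAM19, FAM222B, RHOB and INHBA in the higher direction, beside SEMA7A and 3 small RNA genes with few reads, and DUSP5, DKK3 and SOX9 had the same adjusted p as SEMA7A. HMGA2, a chromatin protein of embryonic and migrating cells, stood at 2.55, 2.34 and 2.23 FPKM in the controls and 6.89 and 9.08 FPKM in knockdown replicates 1 and 3 (1.40, adjusted p = 0.0047), with 3.46 FPKM in the library left out. INHBA, the subunit of activin A, stood at 1.92, 1.67 and 1.40 FPKM against 5.2 and 5.97 FPKM (1.31, adjusted p = 0.0158), with 2.99 FPKM in the library left out. For both genes the third library was also above the controls, by less. RHOB, a small GTPase, differed in this respect, at 9.79, 11.7 and 10.2 FPKM against 23.6 and 21.2 FPKM, and 8.61 FPKM in the library left out.

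In the lower direction the first were CDCA8, RSU1, ATXN10, METTL7A, ACKR3, SERINC3 and FGFR3, beside PADI3, AKR1B10 and AP001767.4, and GPD1L and DAZAP2 had the same adjusted p as the last of these. SERINC3, a membrane protein of a family linked to serine incorporation into lipids, measured 30.5, 25.2 and 28.1 FPKM against 14.4 and 14.8 FPKM (-0.89, adjusted p = 0.0158) and 22.1 FPKM in the library left out. RSU1, which binds a complex at integrin adhesions, measured 14.9, 13.6 and 14.6 FPKM against 8.30 and 8.21 FPKM (-0.73, adjusted p = 0.0125) and 10.3 FPKM there. FGFR3, a growth factor receptor of keratinocytes, went to both sides, at 4.87, 5.98 and 6.78 FPKM against 2.22 and 2.33 FPKM (-1.06, adjusted p = 0.0161) and 17.2 FPKM in the library left out. ACKR3, a scavenging chemokine receptor, did so too, with 20.7, 17.9 and 21.6 FPKM against 8.16 and 8.45 FPKM and then 23.3 FPKM.

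By list, 5 of 23 genes of EGF receptor signalling were called up in this fit, against 0.432% of all genes. They were TGFA (adjusted p = 0.0307), SPRY4 (0.0411), DUSP5 (0.0161), ETV5 (0.0345) and DUSP6 (0.0495), the last 2 named after their values were seen. The library left out lay above the controls for TGFA and DUSP5 (21.1 and 9.69 FPKM). It lay within them for SPRY4 and ETV5 (0.524 and 3.95 FPKM). For DUSP6 it lay below them, at 5.14 FPKM against 12.4 to 14.7 FPKM. The median of that list was 0.48 and that of the immediate early genes 0.56, with FOSL1 called (0.0465). CXCL8 was the single cytokine called (1.83, adjusted p = 0.0278), and the cytokine list kept its median at 0.47. PHGDH itself was not called (-1.15, adjusted p = 0.0738).

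The same siRNA difference was also measured in cells given the mix, but the knockdown libraries of the 2 conditions are not independent. Deviations from the group mean correlated across genes at 0.712, 0.799 and 0.502 between PHGDH-siRNA and PHGDH-siRNA+Mix libraries of the same number. Between the control groups these correlations were -0.329, 0.049 and -0.131, so same-numbered control libraries did not deviate together. KRT14, for one, was at 2986 FPKM in replicate 2 without mix and at 2737 FPKM in replicate 2 with it. Of the 13744 genes 9713 (70.7%) had the same sign in both, of the 935 at an unadjusted p below 0.05 785 (84.0%), and of the 24 genes next to the calls 20, with 19 apart in the same direction. Without replicate 2 of both knockdown arms the first 2 shares were 67.9% and 81.8%. Since deviations are shared between the arms, these shares are a description and no separate support. For scale, 7.01% of all genes were apart in the higher and 7.33% in the lower direction with mix. The 24 genes were all apart without mix, and of the 1432 genes apart without mix 519 were apart in the same direction with it. All 6 called genes had the same sign with mix, and 4 were apart in the same direction.

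SEMA7A measured 11.6, 12.5 and 11.6 FPKM in the Control-siRNA+Mix libraries and 49.1, 39.2 and 36.3 FPKM in the PHGDH-siRNA+Mix libraries, a log2 fold change of 1.71 (SE 0.18) against 1.42 without mix. ARID3B measured 4.22, 4.25 and 4.01 FPKM against 10.1, 8.81 and 7.43 FPKM, 0.91 against 0.85. The change in the knockdown difference with mix was 0.29 (SE 0.25) for SEMA7A and 0.06 (SE 0.16) for ARID3B. SSRP1 also had close values, at 54.1, 52.8 and 49.6 FPKM against 29.8, 32.6 and 28.7 FPKM with mix (-0.76 against -0.73), and so did SLC2A3 (1.33 against 1.42), FERMT2 (0.76 against 0.75) and ADAT1 (-0.76 against -0.77).

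The genes that fell without mix were near the floor of the scale with mix. ALDH3A1 stood at 0.703, 0.833 and 1.03 FPKM against 0.486, 0.414 and 0.607 FPKM, AKR1B10 at 0.395, 0.749 and 0.452 FPKM against 0.325, 0.403 and 0.093 FPKM, and PADI3 at 0.936, 0.921 and 0.758 FPKM against 0.290, 0.322 and 0.475 FPKM. AGR2 gave 0.323, 0.344 and 0.480 FPKM against 0.289, 0.285 and 0.342 FPKM. Their differences with mix were -0.30, -0.27, -0.46 and -0.08 on the log2(FPKM + 1) scale, on which changes at such levels are compressed. The interaction had unadjusted p-values of 0.00127, 0.00105, 0.0029 and 0.000432 for these 4 genes, none of which passed adjustment (limma, 0 genes called, adjusted p = 0.9999). METTL7A, at 5.30 to 6.83 FPKM in control cells without mix, was likewise at 0.056 to 0.529 FPKM in all 6 libraries with mix.

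By list, epithelial cytokines had a median of 0.10 with mix, with 15 higher and 12 lower, against 0.49 without. Mitotic and DNA replication genes had medians of -0.32 and -0.25 with mix against -0.10 and -0.04 without. Of the 49 replication genes 43 were lower with mix and 19 were apart in that direction, against 7.33% of all genes. Histones stood at -0.32 with 26 of 33 lower, and NRF2 targets at -0.15 with 24 of 36 lower. The difference of these medians between the conditions was not tested.

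**Figure D5:**
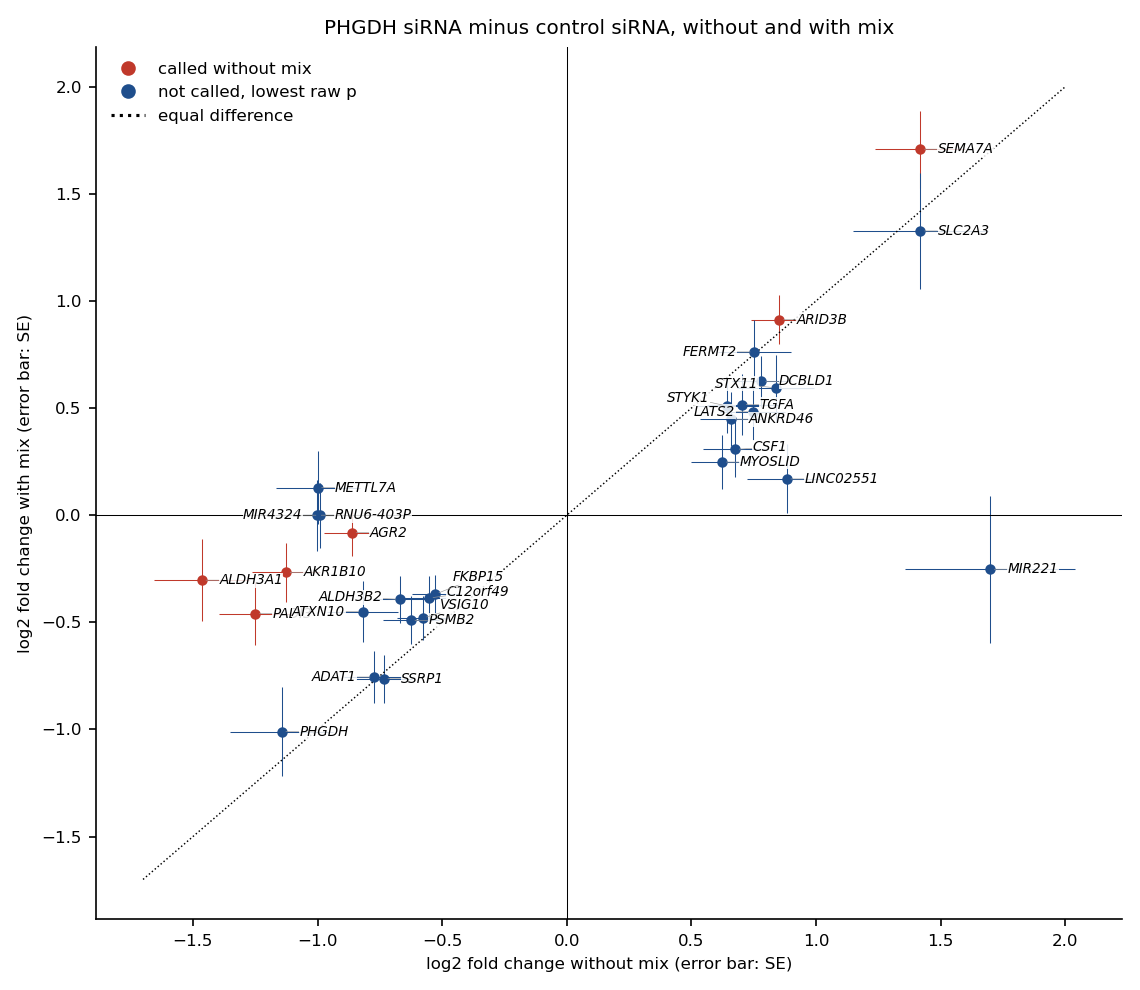
Log2 fold change of PHGDH siRNA against control siRNA without mix (horizontal) and with mix (vertical) for the 6 called genes (red) and the 24 genes next to them (blue), with SE bars and a dotted line of equal difference. SEMA7A, ARID3B, SSRP1, ADAT1 and SLC2A3 lie near the line, and ALDH3A1, AKR1B10, PADI3 and AGR2 lie far to the left of zero but close to zero on the vertical axis.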

How the data were processed

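RNA was measured in HaCaT cells. The authors deposited FPKM values, 1 column per sample and not log-transformed, for 58735 genes, and the unit was read from the values. Build hg38 and the tools featureCounts 1.5.0-p3, HISAT2 2.0.5 and CASAVA stand in the submitters' processing notes, with no role or setting. Per the labels' protocols, the library kit was NEBNext Ultra RNA. The sources used here do not describe the counting of strand or of shared reads.

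Groups were taken from the sample titles. A limma 3.58.1 model (trend and robust options, R 4.3.3) took log2(FPKM + 1) of all 12 samples with 1 mean for each group (8 residual degrees of freedom), and the contrast PHGDH-siRNA minus Control-siRNA was tested two-sided over the 13744 genes that averaged at least 0.5 FPKM in one of the groups. Recovered reads are FPKM times gene length, scaled to whole numbers: 100% of values up to 200 reads lay within 0.05 of one. Read counts cover counting error only, and with 3 libraries per group precision is set mainly by their spread. Genes were handled by identifier because 175 symbols were shared by several.

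Lists are described by counts and medians over their tested members, without a set test; lists overlap in members. The lists, the members and the tests were chosen with earlier results of these data known. Named genes were the called genes, the 12 lowest unadjusted p in each direction with groups apart and 1 FPKM or more, up to 4 members per list by p, a fixed panel, and up to 10 calls per direction without the replicate 2 pair; CYP1A1, CCL2, UBL7, KRT14, CXCL1, HIST1H3A, SLC38A7, ETV5 and DUSP6 were added after their values were seen. Alternatives were the pseudocount, filters, rescaling, voom, fits of 6 samples, a replicate block and leaving out libraries; a filter of 10 recovered reads was added after the data were seen. Same-numbered libraries of the 2 groups compared did not deviate together (correlations -0.394, -0.319 and -0.0189), but those of the knockdown arms without and with mix did (0.712, 0.799 and 0.502), while control libraries did not (-0.329, 0.049 and -0.131). Among differently numbered libraries of the 2 groups compared, Control-siRNA 2 with PHGDH-siRNA 1 gave 0.422 and Control-siRNA 1 with PHGDH-siRNA 2 gave 0.291. The rest lay between -0.043 and 0.075. The pairing of the knockdown arms comes from the data, and the labels give only the number. The model treats all 12 libraries as independent, so a fit with a shared block for the paired libraries was added after the data were seen. The fit was also run on simulated data with independent libraries. These lack the shared deviations of the knockdown arms, so the simulation does not bear on how the calls depend on them.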

Additional observations from a re-analysis of the deposited data

Results flagged for a closer look

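Among the genes named or listed, 4 had groups apart in opposite directions without and with mix, as 15 of all 13744 genes were, against 519 apart in the same direction in both. None passed the test of the difference between the conditions after adjustment (limma, adjusted p = 0.9999), so that these are given as values.

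TNF was higher under PHGDH siRNA without mix (0.827, 0.434 and 0.189 against 1.48, 1.12 and 1.12 FPKM, on 6 to 41 reads) and lower with mix (6.40, 7.56 and 7.08 against 4.17, 4.58 and 5.16 FPKM), a difference between conditions of -1.12 (SE 0.22, unadjusted p = 0.000398). CXCL1, a neutrophil chemokine, was higher without mix (23.9, 31.9 and 24.8 against 67.7, 47.1 and 39.5 FPKM) and lower with it (308, 282 and 314 against 178, 113 and 229 FPKM), a difference of -1.74 (SE 0.36, unadjusted p = 0.000593).

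SOCS1, an inhibitor of cytokine signalling, gave -0.72 (SE 0.29, unadjusted p = 0.0315), from 1.30, 1.18 and 0.884 against 1.45, 3.16 and 1.31 FPKM without mix and 21.8, 22.5 and 21.3 against 15.1, 20.6 and 18.3 FPKM with it. HIST1H3A, a histone gene below 1 FPKM in every library, gave 0.92 (SE 0.26, unadjusted p = 0.00481).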

How the results depend on the processing

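The number of calls, 6 in the main fit, was 0 with a pseudocount of 0.1, 0 in a fit of the 6 samples alone and 1 without the filter on low values. It was 115 without replicate 2 of both PHGDH-siRNA arms, and 0 to 4 when each library was left out in turn. These counts can include other genes: the 1 called without the filter was none of the 6. Other filters, rescaling by the median ratio, voom and a fit without the trend and robust options gave 5 to 7. The replicate block over all groups gave 0 calls on 12 samples and 0 on 6, where numbers did not pair control with knockdown libraries. A replicate block for the knockdown pairs without and with mix, which deviate together, gave 0 calls, and one that also pairs the controls 6; without the replicate 2 pair they gave 87 and 115. Without the replicate 2 pair, the 115 calls became 55 without the filter on low values, 0 in the samples without mix alone, and 6 and 204 with the replicate block on both mix conditions and on the samples without mix alone; other settings gave 101 to 160. The test of the difference between mix conditions called 0 genes, except 5 without the filter on low values. The cause of these shifts was not tested. PHGDH stayed lower in all settings run (-0.99 to -1.30). Over the 233 named genes, 43 of 4613 values under alternatives gained a call and 69 lost one. The sign changed in 37 values of 16 genes, none called in either fit, with differences of at most 0.40 as reported. Depth limits genes such as AGR2, at 20 to 26 reads per knockdown library, and MIR221, at 0 to 7.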
